A study of Mus musculus with 6 samples.

Results

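The nuclear-encoded subunit genes of respiratory complexes III, IV and V were followed in islets of mice with and without Sec16b. They were taken by symbol from the deposited table of normalized counts: symbols starting with Uqcr (complex III), with Cox, a digit from 4 to 8 and a lower-case letter (complex IV), or with Atp5 (complex V), without those containing -ps. This gave 41 of 18437 genes, of which 8 belong to complex III, 16 to complex IV and 17 to complex V. Islets are the endocrine cell clusters of the pancreas. Those used here came from male mice aged 30 weeks and gave 6 RNA sequencing libraries, 3 for the genotype Sec16b+/+ (wild type) and 3 for Sec16b-/- (knockout). The product of Sec16b acts at the sites where cargo leaves the endoplasmic reticulum, and the design sets its loss against the wild type. No diet, treatment or knockout strategy is stated in the labels. Whether the 3 libraries of a genotype are separate animals or pools is not stated either, and the p-values cover the spread among these libraries alone.

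Complex III passes electrons from ubiquinol to cytochrome c, complex IV passes them from cytochrome c to oxygen, and both pump protons out of the mitochondrial matrix. Complex V, the ATP synthase, lets the protons flow back and makes ATP. In beta cells the rise of ATP after glucose uptake closes potassium channels and starts insulin release. Each complex also contains, or works with, subunits encoded by mitochondrial DNA, which were not analysed here.

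The libraries held between 22071895 and 26806787 recovered reads, and the 41 genes took between 0.275% and 0.348% of them. Sec16b itself was lower in knockout libraries (433 to 750) than in wild type libraries (773 to 1786), with −1.22 on the log2 scale (SE 0.35, adjusted p = 0.993 by limma), and was present in all 6. All 11 beta cell markers on the list were measured in every library, 1 of them higher and 10 lower in the knockout, and all 7 alpha cell markers were higher, with 0 passing limma's threshold. The alpha marker sum lay between 233107 and 427809 in wild type and between 304517 and 725254 in knockout libraries. Of 6 delta and PP cell markers 5 were higher and 1 lower, with Ppy at 0.44 (SE 0.18) and Pyy at 0.61 (SE 0.20). Of 7 endothelial markers 6 were higher and 1 lower. The 8 macrophage markers were split 4 higher and 4 lower, and the 7 stellate cell markers 3 higher and 4 lower. On these lists too, 0 passed limma's threshold. The part of these shifts in the results on the subunit genes was not tested. Markers of cells from outside the islet varied widely. The summed value of 16 acinar enzyme and factor genes lay between 229718 and 1132600 in wild type and between 149060 and 4011620 in knockout libraries, lowest in knockout replicate 3 and highest in knockout replicate 1. The 6 measured lymphocyte genes lay between 237 and 21710 in wild type and between 7122 and 143805 in knockout libraries. In bulk tissue fewer cells of a type and less RNA per cell cannot be told apart.

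Transcripts of the ATP synthase catalytic core were the most abundant of the 41. Levels were compared as normalized count per kb of transcript, averaged over the 6 libraries. The beta and alpha subunit genes of the F1 head, Atp5b and Atp5a1, had 6942 and 5779 per kb. The next 4 were Cox8a (3668), Atp5g3 (3522), Cox6a1 (3476) and Cox4i1 (3062). Cox8a and Cox4i1 encode structural subunits of complex IV, Atp5g3 one of the genes for the proton-carrying c ring, and Cox6a1 the widely expressed form of a regulatory subunit. In this order each of the 4 overlapped the next in its single libraries, while Cox8a (3498 to 4012) and Cox4i1 (2858 to 3330) did not overlap.

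The 8 complex III genes were close to one another, from 813 per kb for Uqcr11 to 1438 per kb for Uqcrc1. Uqcrc1 and Uqcrc2 encode the core proteins, Uqcrfs1 the Rieske iron-sulfur protein, and Uqcrb, Uqcrq, Uqcrh, Uqcr10 and Uqcr11 small accessory subunits. In complex V the range was wider, down to 416 per kb for Atp5k, which encodes the small membrane subunit e. In complex IV the lowest tested gene was Cox6a2, the muscle-type partner of Cox6a1, at 476 per kb, with Cox7b next at 892. Far below these sat the 4 genes under the filter on low values (3 libraries or more at 10 or above). They were Cox4i2, Cox6b2, Cox7a1 and Cox6c2, at 5.73 to 25.3 per kb. Cox6c2 is a processed pseudogene in the GENCODE annotation.

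**Figure D1:**
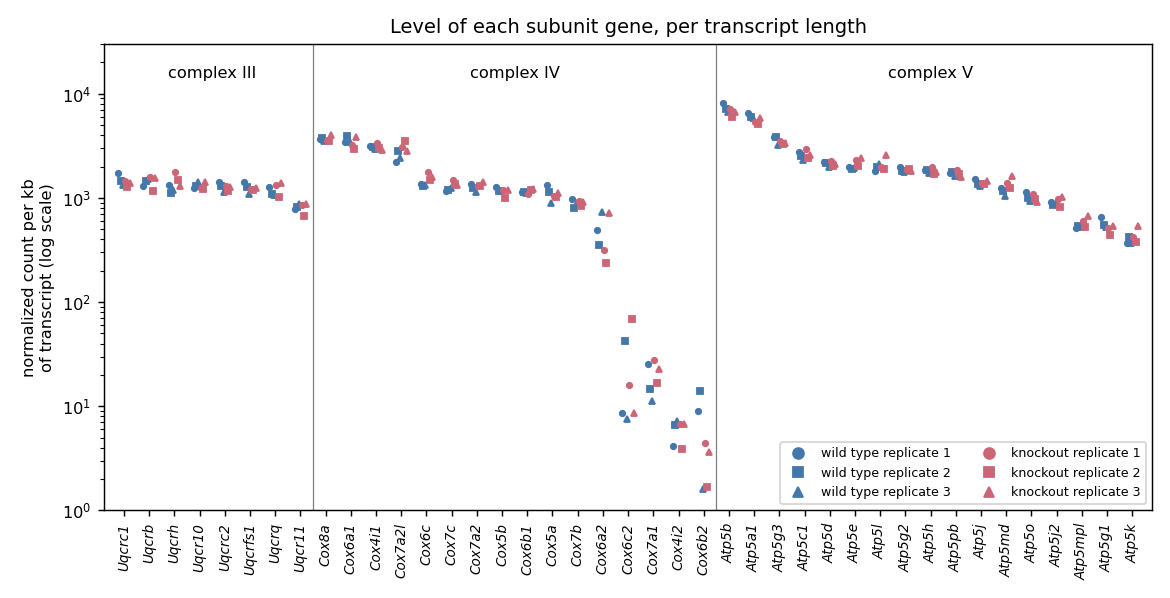
Normalized count per kb of transcript (log axis) for the 41 genes, grouped by complex and ordered by mean, with 1 point per library. Within a gene the 6 libraries lie close together compared with the range between genes, except for Cox6a2 and the 4 genes below the filter.

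Isoform choice in complex IV was one-sided for 3 subunits and mixed for the fourth. Of the Cox4i level per kb, Cox4i1 took between 99.8% and 99.9% in every library. Cox6b1 took between 98.8% and 99.9% against the testis form Cox6b2. Cox7a2 took between 97.9% and 99.0% against the muscle form Cox7a1. Cox7b and Cox8a were the measured forms of their subunits, and Cox7b2, Cox8b and Cox8c were not analysed here. Cox6a2 took between 7.42% and 17.5% of the Cox6a level. The 3 low isoforms had single-library values of 0.879 to 11.0, and, being under the filter, they were not tested between genotypes.

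Subunit c of the ATP synthase is encoded by Atp5g1, Atp5g2 and Atp5g3, whose mature proteins are the same. Their normalized counts averaged 1437, 1083 and 2531. Per kb, Atp5g3 took 59.6%, Atp5g2 31.4% and Atp5g1 9.07% of the sum. The gap between Atp5g2 and Atp5g1 rests on the length used, because Atp5g1 has transcript models of very unequal length. With the shortest principal model its share was 28.6%, beside 29.3% for Atp5g2 and 42.1% for Atp5g3.

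Promoter sequences are shown for 6 members, to set Uqcrh, Cox7a2l and Atp5e, the genes of smallest p in complexes III, IV and V, and Atp5g1, the complex V gene of smallest p on the lower side, beside 2 carriers of a motif of nuclear respiratory factor 1 (NRF1), which with ETS factors such as GABP is known for driving respiratory chain genes. They are the 120 bases before the RefSeq gene start (GRCm38.p6), all on the minus strand: Uqcrh at chr4:116075071-116075190, Atp5e at chr2:174464102-174464221, Atp5k at chr5:108434400-108434519, Atp5g2 at chr15:102671048-102671167, Cox7a2l at chr17:83514334-83514453 and Atp5g1 at chr11:96075632-96075751. Capitals mark matches, on either strand, to the ETS letters CCGGAAG in Uqcrh and Atp5e, and to the NRF1 motif in Atp5k and Atp5g2, whose capitals spell the whole motif searched. Cox7a2l and Atp5g1 held none of the motifs.
Uqcrh: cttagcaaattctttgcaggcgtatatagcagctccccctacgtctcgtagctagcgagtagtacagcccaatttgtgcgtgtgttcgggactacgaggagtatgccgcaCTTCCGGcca
Atp5e: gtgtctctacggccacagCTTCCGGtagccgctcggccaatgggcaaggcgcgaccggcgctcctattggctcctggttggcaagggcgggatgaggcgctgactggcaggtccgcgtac
Atp5k: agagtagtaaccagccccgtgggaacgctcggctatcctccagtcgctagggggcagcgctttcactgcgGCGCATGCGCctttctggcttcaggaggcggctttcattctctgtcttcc
Atp5g2: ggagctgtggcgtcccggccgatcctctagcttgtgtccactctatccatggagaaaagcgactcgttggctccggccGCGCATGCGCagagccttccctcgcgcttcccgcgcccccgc
Cox7a2l: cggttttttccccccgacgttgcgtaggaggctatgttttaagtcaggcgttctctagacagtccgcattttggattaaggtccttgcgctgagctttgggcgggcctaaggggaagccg
Atp5g1: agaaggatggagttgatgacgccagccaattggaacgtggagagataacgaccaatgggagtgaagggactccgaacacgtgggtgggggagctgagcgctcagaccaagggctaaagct

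RefSeq entries of 300 bases (250 before and 50 after the start) were matched for 31 of the 41 genes. The NRF1 motif, which reads the same on both strands, was found in 4 of them (12.9%): Cox6a1, Atp5k, Atp5g2 and Uqcrc1. Among all 27025 genes with an entry the share was 1.07%, and among the 11712 that were also tested here it was 2.07%. The ETS letters were found in 11 (35.5%), against 9.93% of all genes and 18.2% of those tested. The letters AAGATGGC of the YY1 motif, another factor known at such promoters, were found in Atp5j, Atp5j2 and Atp5pb (9.68%), against 3.19% and 4.81%. No matches of different motifs overlapped each other. Members with the ETS letters had a median log2 fold change between genotypes of 0.04 (8 higher, 3 lower), and the 18 tested members with an entry but without them one of −0.01 (8 higher, 10 lower). The 4 members with the NRF1 motif had a median of −0.06 (1 higher, 3 lower), and the 25 tested without it one of 0.008 (15 higher, 10 lower). The 3 with the YY1 letters had a median of 0.02 (3 higher, the smallest fold change being 0.002). The 26 tested without them had one of 0.003 (13 higher, 13 lower). A match is a description of the letters and does not show that a factor binds.

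Between genotypes, the subunit genes of the 3 complexes stayed close together. Knockout was compared with wild type by limma on log2(value + 1) across the 16042 genes that passed the filter, 37 members among them. None of the 37 passed at an adjusted p under 0.05 (lowest adjusted p = 0.993), in a comparison where 0% of all genes passed. At an unadjusted p under 0.05 there were 2 members, Cox7a2l and Cox6c, both higher in knockout libraries, or 5.41% of members against 3.08% of all genes (1.72% higher and 1.36% lower). That count was 0 without wild type replicate 3 or knockout replicate 1, 1 without wild type replicate 1 or 2, and 3 without knockout replicate 2 or 3. The quasi-likelihood test of edgeR on recovered reads also called 0 members and had 2 at an unadjusted p under 0.05, and so did the Wald test of DESeq2, which called 0.114% of the 10555 genes it gave an adjusted p. Of the 37 genes, 20 were on the higher and 17 on the lower side, with a median log2 fold change of 0.01, beside −0.00 over all genes. The split was 25 higher and 12 lower without wild type replicate 1 or without knockout replicate 2. Without wild type replicate 3 or without knockout replicate 1 it was 16 higher and 21 lower. With libraries scaled to equal totals the split was 12 higher and 25 lower and the median −0.06, and the direction turned for Cox4i1, Cox8a, Cox7b, Cox6b1, Atp5c1, Atp5j, Atp5d and Atp5pb.

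The precision was enough to bound most members. The median standard error of a log2 fold change was 0.11 in the 37 genes and 0.20 over all genes. For 30 of the 37 the 95% interval lay within 0.5 on either side of 0, which held for 6099 of all 16042 genes. Such intervals were not particular to the 37. They were found for 31 of 36 subunit genes of complex I (median standard error 0.11). The same held for 59 of 77 mitochondrial ribosomal protein genes (0.14). The 37 genes also had a higher mean log2 level, 10.1 to 10.3 by library, than all genes, 8.2 to 8.4. The part of the level in the precision was not tested. The exceptions among the 37 were Cox7a2l, Cox6c, Uqcrh, Atp5md, Atp5mpl, Atp5k and Cox6a2. The narrowest interval is that of Atp5g2, at 1149, 1060 and 1044 in wild type and at 1077, 1114 and 1055 in knockout libraries, with a log2 fold change of −0.00 (95% interval −0.21 to 0.20).

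**Figure D2:**
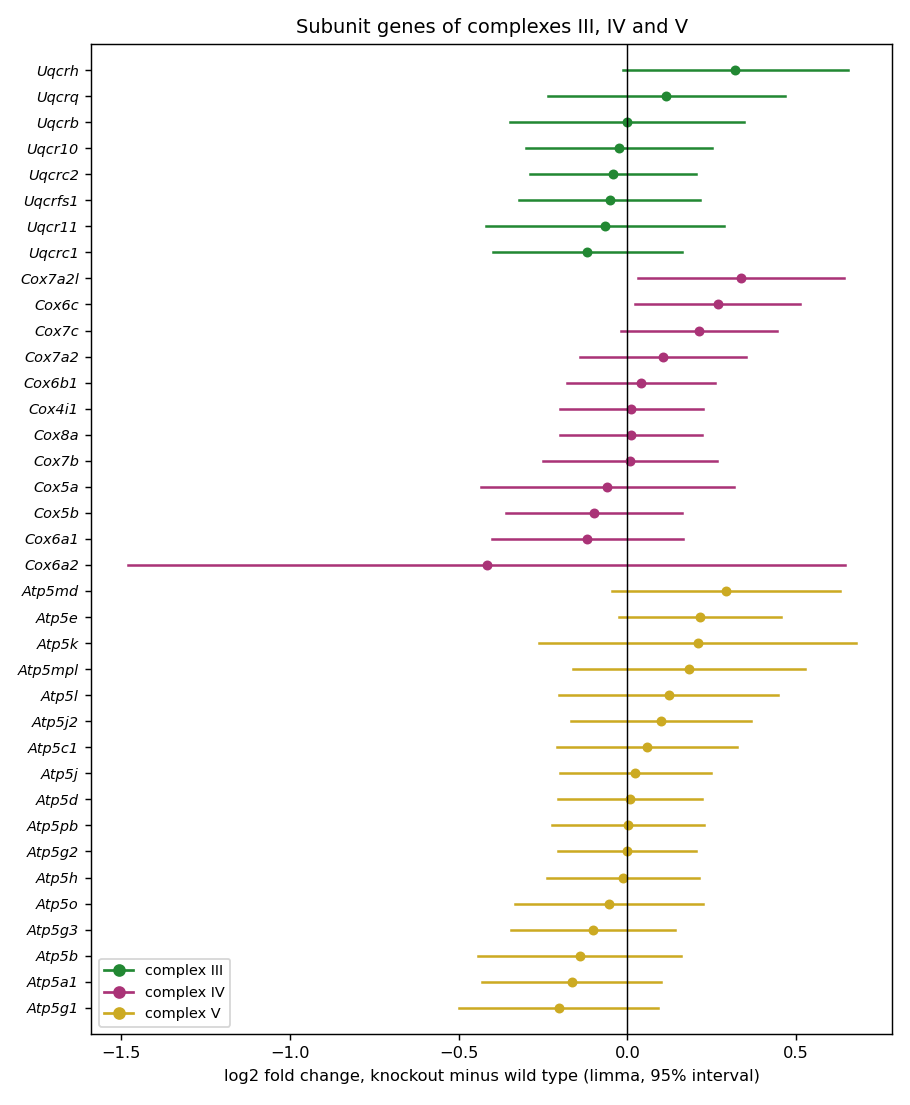
Log2 fold change (knockout minus wild type) of the 37 tested subunit genes with limma's 95% interval, coloured by complex. Only the intervals of Cox7a2l (0.03 to 0.64) and Cox6c (0.02 to 0.51) lie wholly to one side of 0, and that of Cox6a2 (−1.48 to 0.65) is the widest.

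In complex III the median log2 fold change was −0.03, with 2 genes higher and 6 lower. Uqcrh, the acidic hinge protein that helps cytochrome c dock, had the smallest p of the 8. Replicates 1, 2 and 3 were at 723, 614 and 645 for the wild type and at 962, 820 and 708 for the knockout, the order kept for all values given by library. Knockout replicate 3 lay below wild type replicate 1, so the groups overlapped. The log2 fold change was 0.32 (SE 0.14, adjusted p = 0.993 by limma), and it ran from 0.21 to 0.43 over the alternatives. Uqcrq had 0.11 (SE 0.15). On the other side, Uqcrc1 had −0.12 (SE 0.12), Uqcr11 −0.07 (SE 0.15) and Uqcrfs1 −0.05 (SE 0.11). The core gene of highest count, Uqcrc2, had a wild type mean of 2436 ± 247 and a knockout mean of 2359 ± 130 (SD, n = 3 each). Knockout replicate 2 was the lowest library for 5 of the 8 genes.

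In complex IV the median log2 fold change was 0.01 (−0.06 with equal-total scaling), with 8 of 12 tested genes higher and 4 lower. Cox7a2l, also known as Scaf1, encodes a protein related to Cox7a2 that joins complexes III and IV in supercomplexes. It was at 2379, 3055 and 2581 in wild type and at 3302, 3763 and 3039 in knockout libraries. The lowest knockout value, 3039, lay just under the highest wild type value, 3055. The log2 fold change was 0.34 (SE 0.13, unadjusted p = 0.0350 and adjusted p = 0.993 by limma), or 26.3% higher. It stayed between 0.25 and 0.44 in all 17 alternatives. Its relative Cox7a2 had 0.11 (SE 0.10). The share of Cox7a2l in the summed level per kb of Cox7a1, Cox7a2 and Cox7a2l averaged 66.2% ± 4.12 in wild type libraries. In knockout libraries this share averaged 69.6% ± 3.13 (SD, n = 3 each).

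The knockout values of Cox6c and Cox7c, which encode small membrane-spanning subunits of complex IV, all lay above the wild type values. Cox6c was at 825, 796 and 810 in wild type and at 1085, 894 and 958 in knockout libraries. The log2 fold change was 0.27 (SE 0.10, unadjusted p = 0.0359 and adjusted p = 0.993 by limma). Cox7c was at 631, 648 and 669 in wild type and at 809, 732 and 720 in knockout libraries (0.21, SE 0.10, adjusted p = 0.993 by limma). The wild type libraries of both genes were tightly grouped, and knockout replicate 1 was the highest. With Atp5e of complex V, 3 of 37 members (8.11%) had groups that did not overlap, all 3 higher. Over all genes 9.08% did not overlap, 3.85% with knockout higher and 5.22% with knockout lower.

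Apart from Cox6a2, the remaining complex IV genes had smaller fold changes. Cox4i1 was at 2301 ± 78.1 in wild type and 2323 ± 180 in knockout libraries (SD, n = 3 each), and Cox8a at 2009 ± 60.4 and 2027 ± 156 (SD, n = 3 each). The log2 fold changes of Cox4i1, Cox8a, Cox7b and Cox6b1 lay between 0.01 and 0.04. Those of Cox6a1, Cox5b and Cox5a, of which Cox5a and Cox5b face the matrix side of the enzyme, were −0.12 (SE 0.12), −0.10 (SE 0.11) and −0.06 (SE 0.16).

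**Figure D3:**
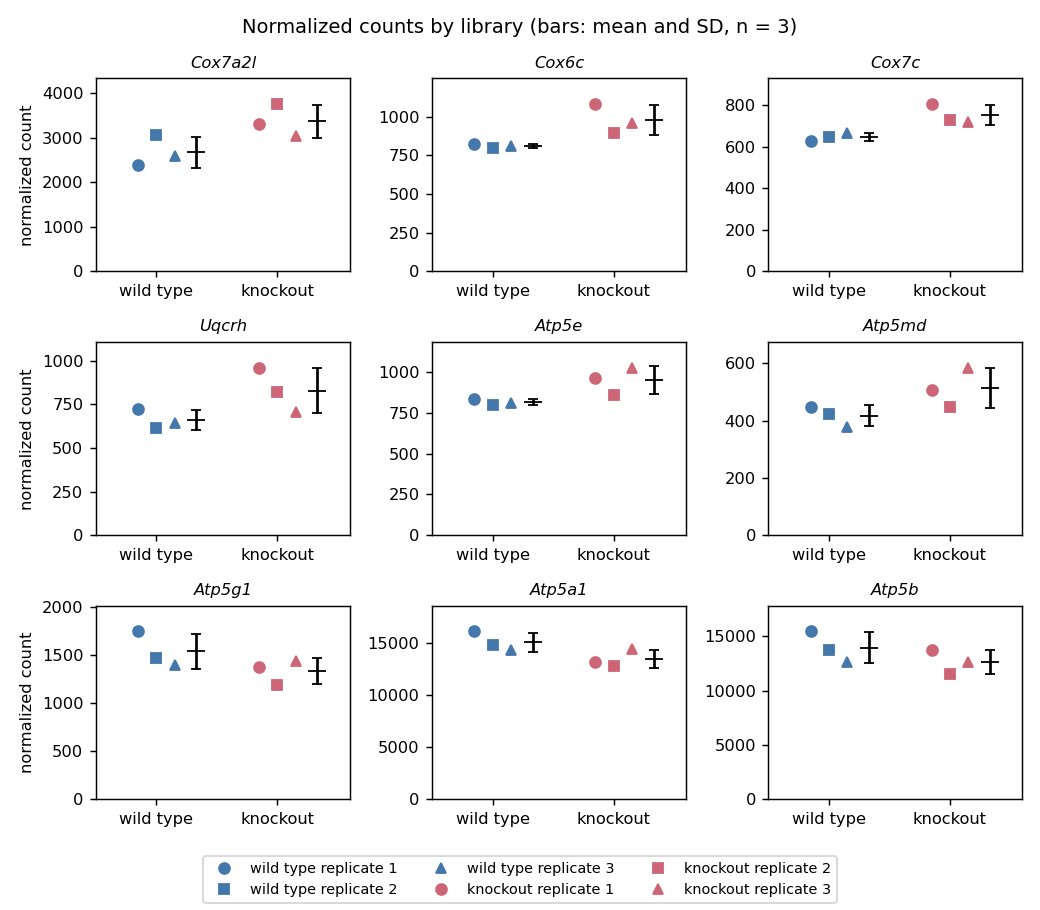
Normalized counts of 9 subunit genes in each library, with the group mean and SD (n = 3). Of these 9, the groups do not overlap for Cox6c, Cox7c and Atp5e, and they overlap for Cox7a2l, Uqcrh, Atp5md, Atp5g1, Atp5a1 and Atp5b.

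Cox6a2 was the most variable tested member, and it varied within both genotypes. It was at 338, 239 and 500 in wild type and at 215, 162 and 486 in knockout libraries, 3.09-fold from lowest to highest. For the other 36 tested members that ratio was at most 1.58. Replicate 3 was the highest library of either genotype, and the groups overlapped. The log2 fold change was −0.42 (SE 0.45, adjusted p = 0.993 by limma), −0.09 without knockout replicate 2 and −0.88 without knockout replicate 3. Cox6a1 was at 1976, 2225 and 1985 in wild type and at 1825, 1698 and 2202 in knockout libraries.

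Some other values shared the peak of Cox6a2 in replicate 3 but did not follow it in all the others. Its exons overlap those of Itgad, a leukocyte integrin gene, on the opposite strand in GENCODE M21. Itgad was at 74.2, 52.3 and 113 in wild type and at 14.7, 46.8 and 164 in knockout libraries, with replicate 3 again the highest in either genotype but knockout replicate 1, not 2, the lowest. The strand setting of the counting is not given in the sources used here, so reads of Cox6a2 and Itgad cannot be told apart. The mean log2 level of the 11 beta cell markers stood at 14.72, 14.85 and 15.02 in wild type and at 14.38, 14.56 and 15.06 in knockout libraries, also highest in replicate 3 of each genotype but lowest in replicate 1 of each, where Cox6a2 was lowest in replicate 2. Of 11 markers of striated muscle and brown fat, tissues known for Cox6a2, 5 were measured. The summed value of the 4 tested ones was highest in replicate 2 of each genotype (331 and 497), where Cox6a2 was lowest. In wild type these 4 did not peak together. Actc1 was highest in replicate 3 (64.2), Des in replicate 1 (137), and Acta1 (118) and Cidea (68.7) in replicate 2. Among knockout libraries all 4 were highest in replicate 2. Their part in the variation of Cox6a2 was not tested.

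**Figure D4:**
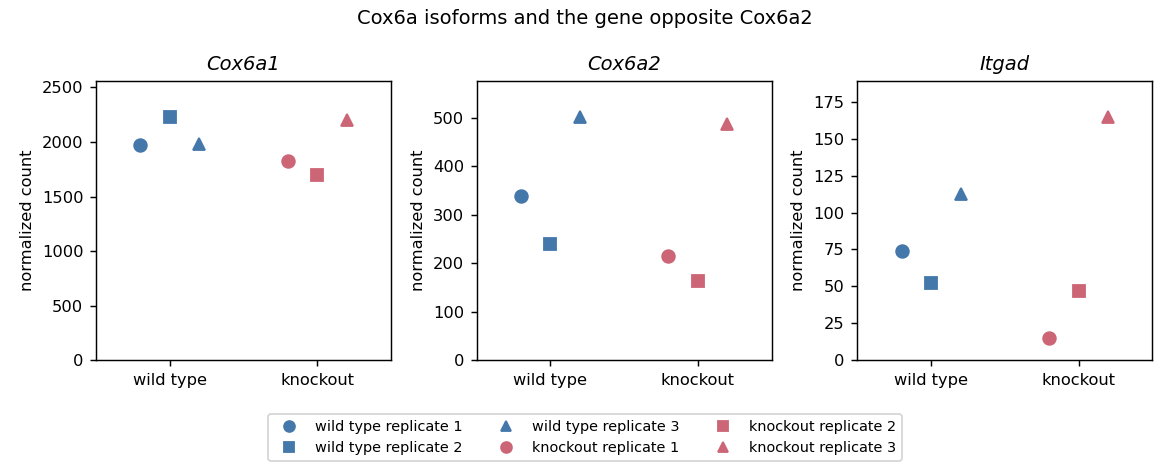
Normalized counts of Cox6a1, Cox6a2 and Itgad in each library. Cox6a2 (162 to 500) and Itgad (14.7 to 164) both have their highest value of either genotype in replicate 3, while Cox6a1 stays between 1698 and 2225.

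In complex V the median log2 fold change was 0.01 (−0.06 with equal-total scaling), with 10 genes higher and 7 lower. The genes on the higher side were led by small subunits. Atp5e, the epsilon subunit of the F1 stalk, was at 834, 797 and 812 in wild type and at 963, 856 and 1027 in knockout libraries, without overlap (0.22, SE 0.10, adjusted p = 0.993 by limma). Atp5md, a small membrane subunit also called Dapit or Usmg5, was at 449, 424 and 378 in wild type and at 507, 447 and 585 in knockout libraries (0.29, SE 0.14). Its knockout replicate 2 lay just under wild type replicate 1. Atp5mpl, another small membrane subunit, had 0.18 (SE 0.14), and Atp5k 0.21 (SE 0.20). Without knockout replicate 3 these came to 0.10 for Atp5mpl, 0.07 for Atp5k and 0.19 for Atp5md.

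On the lower side stood the large F1 subunits and a c-ring gene. Atp5a1 was at 16141, 14789 and 14355 in wild type and at 13157, 12773 and 14464 in knockout libraries, where only knockout replicate 3 overlapped the wild type range (−0.17, SE 0.11, adjusted p = 0.993 by limma). Atp5b was at 15468, 13753 and 12656 in wild type and at 13741, 11539 and 12646 in knockout libraries (−0.14, SE 0.13). Atp5g1 had −0.20 (SE 0.12), Atp5g3 −0.10 (SE 0.10) and Atp5g2 −0.00 (SE 0.09). The other F1 genes Atp5c1 and Atp5d, for the gamma and delta subunits, had 0.06 (SE 0.11) and 0.01 (SE 0.09). The peripheral stalk genes Atp5pb, Atp5h, Atp5j and Atp5o had 0.00, −0.01, 0.02 and −0.06. The membrane subunit genes Atp5l and Atp5j2 had 0.12 (SE 0.14) and 0.10 (SE 0.11). Of the 17 complex V genes, the genotypes overlapped in all but Atp5e.

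In complex V the fold change ran against transcript length, and so it did in complex I. Across its 17 genes the Spearman correlation between transcript length and log2 fold change was −0.78, which describes genes that share the same 6 libraries and are not independent. It was −0.26 over the 8 complex III genes, −0.06 over the 12 tested complex IV genes and −0.08 over the 15974 tested genes with a length. Over all 37 tested members it was −0.46, and over the 36 complex I genes −0.37, where the genes under 600 nt had a median of 0.10 and the longer ones one of −0.07. Whether complex V differs from these sets was not tested. The 6 complex V genes under 600 nt had a median of 0.20 and the 11 longer ones one of −0.01. Over all genes the medians were 0.09 for the 622 under 600 nt and −0.01 for the longer ones. The median of the 6 short complex V genes, relative to the wild type mean, was −0.00, 0.02 and −0.03 in the wild type libraries. It was 0.16 and 0.37 in replicates 1 and 3 of the knockout and 0.02 in replicate 2, close to the highest wild type library. The complex V correlation was −0.63 without knockout replicate 3 and −0.49 with length taken as the union of exons.

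**Figure D5:**
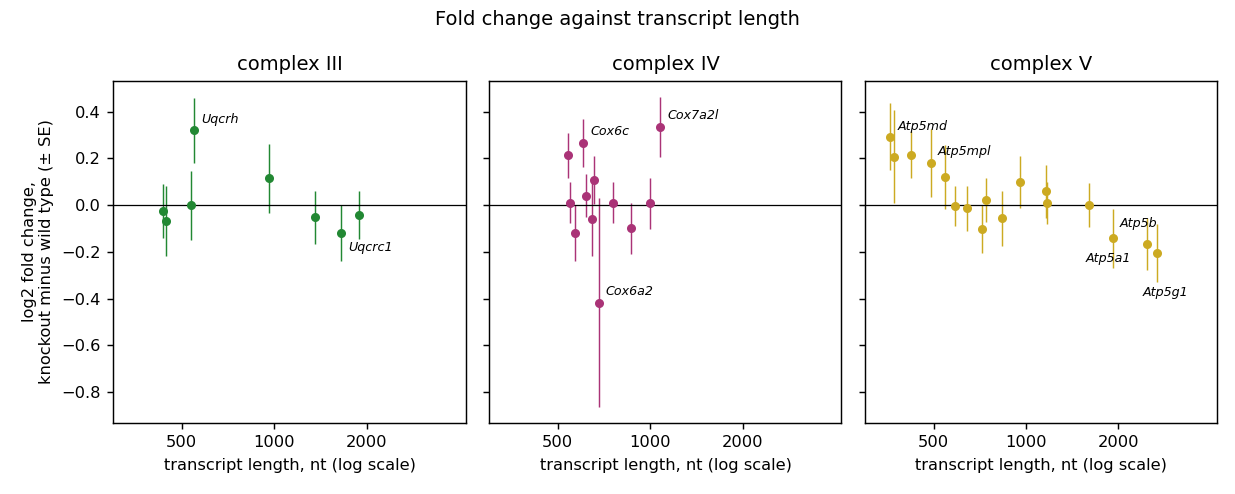
Log2 fold change (± SE, knockout minus wild type) of the 37 tested subunit genes against transcript length (log axis), by complex. In complex V (17 genes, Spearman correlation −0.78) 5 of the 6 genes under 600 nt lie above 0 and the 3 longest, Atp5b, Atp5a1 and Atp5g1, below it, while the correlation is −0.26 in complex III and −0.06 in complex IV. The place of Atp5g1 on the length axis rests on the length used, because its transcript models are of very unequal length.

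Single libraries of one genotype spread over a range that the other genotype overlapped. Relative to the wild type mean, the median log2 level of the 37 genes was 0.07, −0.00 and −0.05 in the wild type libraries and 0.06, −0.08 and 0.07 in those of the knockout, by replicate number. Knockout replicate 2 was the lowest library for 13 of the 37 genes and wild type replicate 3 for 11. Wild type replicate 1 was the highest for 12, knockout replicate 3 for 11 and knockout replicate 1 for 9. The complex III genes ran from 0.13 in wild type replicate 1 to −0.15 in knockout replicate 2, and the complex V genes from 0.10 in knockout replicate 1 to −0.08 in wild type replicate 3. The summed normalized count of the 37 genes came to 78742, 74143 and 69789 in wild type and to 74515, 67898 and 73940 in knockout libraries.

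Other gene sets read in the same libraries gave the following medians. The 36 tested subunit genes of complex I had a median log2 fold change of −0.05 (16 higher, 20 lower) and 77 mitochondrial ribosomal protein genes −0.04 (23 higher, 54 lower). The 85 cytosolic ribosomal protein genes had 0.18 (79 higher, 6 lower), with a library spread from −0.25 in wild type replicate 3 to 0.49 in knockout replicate 1. None of these genes passed limma's threshold, and whether the sets differ was not tested.

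Genes that serve the 3 complexes gave 0 calls by limma as well. Of the other subunits and electron carriers, 3 of 4 listed were tested and all 3 were on the lower side, with cytochrome c itself, Cycs, at 1278, 1428 and 1092 in wild type and at 1184, 989 and 970 in knockout libraries (−0.27, SE 0.13, adjusted p = 0.993 by limma). Ndufa4, a complex IV subunit despite its name, had −0.04 (SE 0.14). Of the 4 complex II genes, 2 were higher and 2 lower. Sdhc, a membrane anchor of complex II, was at 1482, 1648 and 1580 in wild type and at 1355, 1180 and 1470 in knockout libraries without overlap (−0.24, SE 0.11), and Sdha had −0.10 (SE 0.11).

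Among tested assembly factors, 2 of 6 for complex III and 10 of 23 for complex IV were on the higher side, with medians of −0.04 and −0.06. The complex V list, which also holds the inhibitor gene Atpif1, had 1 of 5 tested genes higher and a median of −0.04. Higd2a, a complex IV assembly factor, was at 433, 470 and 413 in wild type and at 362, 373 and 383 in knockout libraries without overlap (−0.23, SE 0.11). Cox17, the copper chaperone of complex IV, had 0.58 (SE 0.31) at values of 33.9 to 79.6. Uqcc1 and Lyrm7, which act in complex III assembly, had −0.15 (SE 0.10) and 0.34 (SE 0.26). The F1 assembly factors Atpaf2 and Atpaf1 had 0.14 (SE 0.12) and −0.19 (SE 0.16). Among 12 regulators of mitochondrial biogenesis, 5 were higher and 7 lower. Ppargc1a, the coactivator that drives such genes, was at 184, 138 and 134 in wild type and at 245, 290 and 168 in knockout libraries, with overlap at knockout replicate 3 (0.60, SE 0.25, unadjusted p = 0.0503 and adjusted p = 0.993 by limma). Gabpb1, a subunit of the ETS factor GABP, had 0.16 (SE 0.18). Of 6 tested carrier and channel genes 1 was higher, with the channel gene Vdac3 at −0.22 (SE 0.12) and the ATP carrier gene Slc25a4 at −0.16 (SE 0.12).

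Counting could blur some of these values. The exons of 10 of the 41 genes overlap a gene on the opposite strand, Cox6a2, Cox5a, Uqcrc2, Uqcrb, Atp5l, Atp5j, Atp5o, Atp5a1, Atp5pb and Atp5md. Many of these subunit genes also have processed copies in the genome. The 5 rows left out for -ps in their symbol had mean values between 4.09 for Cox7c-ps1 and 84.9 for Cox5b-ps, beside 1006 for Cox5b, and reads shared with such copies cannot be separated here.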

How the data were processed

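Total RNA from frozen islets was sequenced in 6 libraries, grouped and numbered by their titles. HISAT2 is the aligner named, per the submitters' processing notes. Counter, genome build, annotation and strand are not given in the sources used. The table deposited by the authors holds a normalized signal: each library's gene counts over its size factor, since 100% of values are whole multiples of that library's step within 0.01 reads. In wild type replicate 1 and knockout replicate 3 the step lies close to 1, where this check is weaker, and their read totals rest on it. The table has 0 values at zero, so genes silent in a library were not analysed here.

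The filter on low values required 10 or more in 3 or more libraries and left 16042 of 18437 genes. Limma 3.58.1 (R 4.3.3) fitted knockout minus wild type on log2(value + 1) with a mean-variance trend, two-sided, with Benjamini-Hochberg adjustment over all genes at 0.05. Fold changes on this scale understate those of low genes. EdgeR 4.0.16 and DESeq2 1.42.0 ran on the recovered reads as alternatives. The limma step was tested on simulated data with changes far larger than those of the subunit genes. That test does not speak to changes of their size.

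Transcript length is the median of the APPRIS principal models in GENCODE M21 (for Cox6c2, its annotated transcript), where all 41 genes were found, 2 of them by a RefSeq synonym. Lists are described by counts and medians without a set test. Members and lists were chosen with earlier results of these data known. Genes were named by a rule: Sec16b, the 3 smallest p per direction in each complex, isoform sets, the highest and lowest level, genes under the filter and the 2 smallest p of each pathway list. Others are named to account for every member. Alternatives covered pseudocount, filter, scaling, variance trend, tool, an acinar covariate, a replicate block and the omission of each library.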

Additional observations from a re-analysis of the deposited data

How the results depend on the processing

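In the 17 alternatives 0 members passed an adjusted p under 0.05. DESeq2 called 12 genes in all, none of them a member, where limma and edgeR called 0. The number of members at an unadjusted p under 0.05, 2 with all libraries, was 0 with equal-total scaling, with no variance trend and with the acinar level as covariate, and ran from 0 to 3 when single libraries were left out. Equal-total scaling, which by construction moves every gene by about the same amount, took the median of complex IV to −0.061, of complex V to −0.064, of all members to −0.064 and of complex III to −0.11, so the first 3 turned sign. Of these shifts only that of complex IV exceeded the spread of its median between libraries (SD 0.056). In the other alternatives all 4 medians moved by less than their spread between libraries. Leaving out single libraries still turned the sign of each of them. The median then ran from −0.023 to 0.040 over all members and from −0.065 to 0.038 in complex III. It ran from −0.003 to 0.056 in complex IV and from −0.029 to 0.045 in complex V. Of 37 members, 19 kept their direction in all 17 alternatives, and 18 changed it in at least 1, the largest of those being Atp5l (0.12). With a replicate block 3 members had an unadjusted p under 0.05 and 0 were called (lowest adjusted p = 0.837 by limma). Over all genes 864 had an unadjusted p under 0.05 by limma with the block and 494 without it. The labels share replicate numbers between genotypes and do not state what the numbers stand for. Deviations of same-numbered libraries correlated at 0.43, 0.00 and 0.37 for replicates 1, 2 and 3. The highest value between libraries of different number was 0.20, for wild type replicate 2 and knockout replicate 3. Replicates 1 and 3 thus correlated best with their own number and replicate 2 did not. The main fit did not take the numbers as pairs. DESeq2 left 1 member without an adjusted p. The Atp5g1 share of subunit c per kb, 9.07%, was 5.54% with the union of exons. The Spearman correlation between length and fold change in complex V, examined after seeing the data, ran from −0.84 to −0.49.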
